A study of Mus musculus with 4 samples.

Results

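The A-, B-, D- and E-type cyclins of the mouse testis are 10 genes, Ccna1, Ccna2, Ccnb1, Ccnb2, Ccnb3, Ccnd1, Ccnd2, Ccnd3, Ccne1 and Ccne2. They were taken by symbol from the 112302 entries of the deposited expression files, which list them in capitals (CCNA1, CCNA2, CCNB1, CCNB2, CCNB3, CCND1, CCND2, CCND3, CCNE1 and CCNE2), and all 10 were found. RNA had been sequenced from testis of BALB/C mice, with no treatment or mutation named in the labels, and each stage has 1 library. The fetal stages are embryonic days 14 (E14) and 18 (E18), and the postnatal stages are ages of 3 weeks and 6 months. The RNA was bought from a supplier, and whether it was pooled over animals is not given in the sources used here. Levels are RPKM, reads per kilobase of gene model scaled to the depth of the library, with 33952471 to 38903334 reads behind the values of a library. With 1 library a stage no spread between animals can be had, so no p-value is given, and "higher" and "lower" describe these libraries.

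Cyclins are the regulatory subunits that switch on cyclin-dependent kinases. D-type cyclins act with Cdk4 and Cdk6 to inactivate the retinoblastoma protein, E-type cyclins act with Cdk2 at the entry into DNA synthesis, A-type cyclins act with Cdk2 and Cdk1 in DNA synthesis and afterwards, and B-type cyclins drive division with Cdk1. In the testis the fetal germ cells stop dividing before birth while Sertoli cells go on dividing, and meiosis begins only after birth. Ccna1 is a germ cell form of cyclin A that male meiosis requires, and Ccnb3 is a B-type cyclin of early meiotic prophase, whereas Ccna2 and Ccnb1 serve the mitotic cycle of most dividing cells.

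Between the fetal and the postnatal libraries the cyclins changed places. Ccna1 and Ccnb3 together made up 0.269% of the summed RPKM of the 10 cyclins at E14 and 0.489% at E18, against 22.0% at 3 weeks and 29.0% at 6 months. The sum itself was 53.1, 46.0, 78.1 and 77.0 RPKM in the order of age. Per length of the deposited gene models, the highest cyclin at both fetal stages was Ccna2, followed by Ccnb2 and Ccnd3. At 3 weeks the order began with Ccnb2, Ccne2 and Ccna1, and at 6 months with Ccnb2, Ccna1 and Ccnd3, with Ccnb2 alone at 54.8% of the sum. The fetal order depends on the length used: the Ccnd3 model spans 8775 bases, the union of its annotated exons, and its longest coding transcript 2113. Per length of the longest coding transcript, Ccnd3 led at E14 with 37.8 reads per kilobase on the same depth scale, against 15.4 for Ccna2, and at E18 with 37.9 against 13.8. The first 3 places of both postnatal stages were the same by either length, and Ccna1 and Ccnb3 together made up 0.154%, 0.270%, 18.8% and 22.7% of the sum by transcript length.

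The 250 bases upstream of the start site are shown for Ccnb2 and Ccnb3, B-type genes of unlike profile. Ccnb2 was the cyclin with the highest postnatal level, and Ccnb3 peaked at 3 weeks and was low elsewhere. Sequences are those of RefSeq on GRCm38.p6, written toward the gene. Promoters of 6 of the 10 cyclins (Ccna1, Ccnb1, Ccnb2, Ccnb3, Ccnd3 and Ccne1) were matched in the table by symbol. Capitals mark CCAAT (the box bound by NF-Y), TTTGAA (the cell cycle homology region) and AACNG (the core of sites bound by MYB proteins), each searched on both strands.
Ccnb2, chr9:70421555-70421804, minus strand: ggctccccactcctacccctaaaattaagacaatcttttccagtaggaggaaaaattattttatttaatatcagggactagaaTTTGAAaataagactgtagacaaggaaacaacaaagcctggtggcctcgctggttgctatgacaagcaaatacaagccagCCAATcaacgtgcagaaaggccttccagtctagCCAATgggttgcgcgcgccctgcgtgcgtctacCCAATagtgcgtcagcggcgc
Ccnb3, chrX:7041620-7041869, minus strand: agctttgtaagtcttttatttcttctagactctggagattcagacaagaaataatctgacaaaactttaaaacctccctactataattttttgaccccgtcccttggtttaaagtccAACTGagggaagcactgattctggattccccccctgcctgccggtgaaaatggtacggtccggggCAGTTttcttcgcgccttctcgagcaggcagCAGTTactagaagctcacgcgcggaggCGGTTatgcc

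The Ccnb2 window held 3 CCAAT boxes, whose first bases lay 87, 54 and 21 bases before the start, 1 TTTGAA at 167 bases and 0 MYB cores. Ccnb3 had 0 CCAAT boxes, 0 TTTGAA and 4 MYB cores, at 133, 68, 37 and 10 bases. Among 32851 promoter windows of the same length, 2.79% held 3 or more CCAAT boxes, 16.0% at least 1 TTTGAA and 19.3% at least 3 MYB cores. Ccna1 had 1 CCAAT box and 3 MYB cores, and Ccnb1 had 2 CCAAT boxes and 1 MYB core. The windows of Ccnd3 held 0 and 1 CCAAT boxes and 1 MYB core each, and Ccne1 had no match to any of these letters. Annotated exons cover 64 bases of the Ccna1 window, 84 of Ccnb1, 44 of Ccne1 and 31 of the Ccnd3 window with the CCAAT box. Matches in these windows may thus lie in exons, and only windows free of exons were printed. The E2F letters TTTCCCGC were in 0 of the 7 cyclin windows (Ccnd3 has 2) and in 0.895% of all windows. These matches describe letters in a window, and binding to them was not measured.

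Ccna1 (chromosome 3, 55045469 to 55055501, GRCm38, also called mm10) had 0.0811 RPKM at E14 and 0.129 at E18, but 14.3 at 3 weeks and 21.9 at 6 months. Both fetal values rested on few reads, 5 and 7, and both postnatal ones on 772 and 1244. The fetal and postnatal values were far apart: the ratio of 3 weeks to E18 was 111, with an exact 95% interval of 53.7 to 277, which, like all intervals here, covers counting error only. E18 and E14 did not differ beyond counting error (ratio 1.59, interval 0.435 to 6.36), and 6 months was above 3 weeks by 1.53 times (1.40 to 1.67). Among the 12641 tested protein-coding symbols, those of at least 1 RPKM in a library, 8.72% had a lower RPKM than Ccna1 at E18 and 92.1% at 3 weeks.

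Ccna2 (chromosome 3, 36564865 to 36572150) ran the other way, with 13.05 RPKM at E14 and 11.7 at E18, followed by 3.44 at 3 weeks and 1.31 at 6 months. Each step down exceeded counting error, with E18 at 3.40 times the 3-week level (3.04 to 3.804) and 3 weeks at 2.62 times the 6-month level (2.18 to 3.16). Within a library the ratio of the forms does not depend on how libraries are scaled to each other. Ccna1 was 0.618% of the summed cyclin A RPKM at E14 (exact 95% interval 0.201% to 1.43%), 1.09% at E18 (0.441% to 2.23%), 80.7% at 3 weeks (78.7% to 82.5%) and 94.4% at 6 months (93.4% to 95.2%). Cyclin A as a class thus held 13.1, 11.8, 17.8 and 23.2 RPKM while its main form was exchanged.

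**Figure D1:**
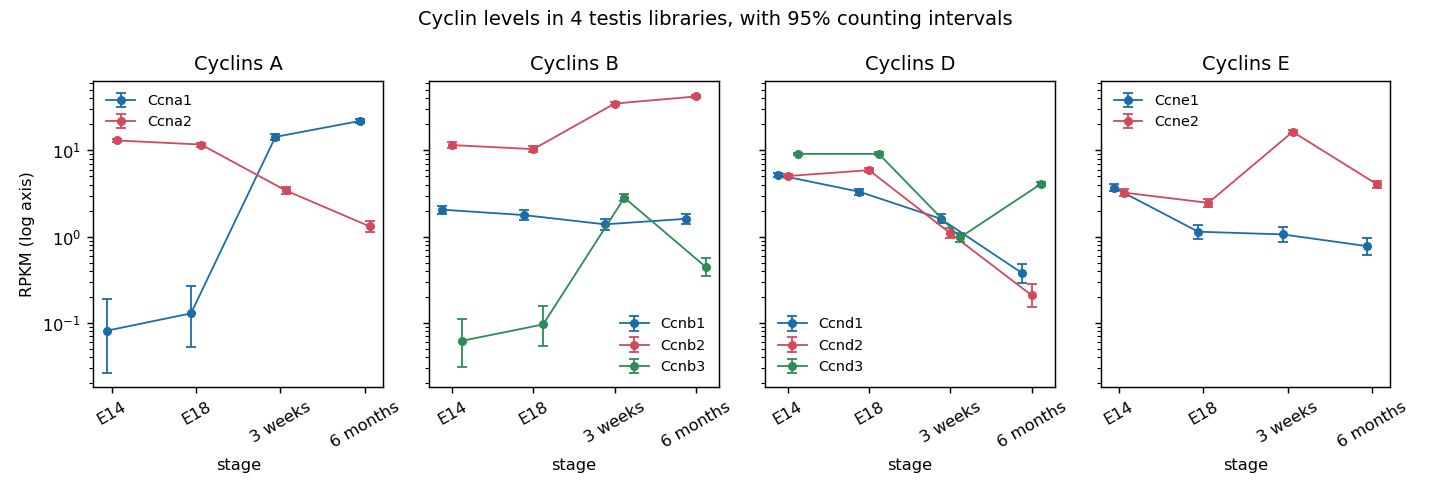
RPKM of each cyclin (log axis) at E14, E18, 3 weeks and 6 months, 1 library a stage, in 1 panel a class; bars are exact Poisson 95% intervals of counting error. Ccna1 goes from 0.0811 at E14 to 21.9 at 6 months while Ccna2 goes from 13.05 to 1.31, and Ccnb3 is highest at 3 weeks with 2.83.

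Ccnb1 (chromosome 13, 100778650 to 100786570), the essential mitotic cyclin B, had 2.05 RPKM at E14 and 1.78 at E18, then 1.39 at 3 weeks and 1.61 at 6 months. No neighbours in the order of its 4 levels differed beyond counting error, and its highest was 1.48 times its lowest (1.24 to 1.77). Its level is uncertain, because 67.2% of the 50-base words of the processed pseudogene Ccnb1-ps also occur in Ccnb1 transcripts and no entry was matched to that pseudogene by name.

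Ccnb2 (chromosome 9, 70407692 to 70421547) is a B-type cyclin that mice can live without. It had 11.5 RPKM at E14 and 10.4 at E18, then 34.9 at 3 weeks and 42.2 at 6 months. Both postnatal levels lay above both fetal ones, by 3.37 times from E18 to 3 weeks (3.06 to 3.72), and E14 and E18 did not differ beyond counting error (ratio of E14 to E18 1.11, interval 0.994 to 1.25). Ccnb2 was the main cyclin B at every stage, at 84.5%, 84.7%, 89.2% and 95.4% of the class in the order of age. Per length of the longest coding transcript these shares were 76.6%, 77.0%, 87.1% and 93.1%, and counted as reads 66.5%, 66.7%, 74.1% and 88.1%. At 3 weeks 97.7% of the tested protein-coding symbols lay below it. No 50-base word of its pseudogene Ccnb2-ps occurs in Ccnb2 transcripts, and that entry stayed at 0.178 to 0.5003 RPKM.

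Ccnb3 (chromosome X, 6979652 to 7041619) had 0.0619 RPKM at E14 and 0.0960 at E18, followed by 2.83 at 3 weeks and 0.447 at 6 months, from 11, 15, 438 and 73 reads. The 3-week library stood above all others, at 29.4 times E18 (17.7 to 53.0) and 6.33 times 6 months (4.93 to 8.22), and 6 months in turn was above E18 by 4.65 times (2.64 to 8.73). Even at 3 weeks Ccnb3 made up 7.22% of cyclin B RPKM (6.55% to 7.95%), against 0.454% at E14, 0.785% at E18 and 1.01% at 6 months. Ccna1 and Ccnb3 were both low before birth and parted after 3 weeks, Ccna1 being higher and Ccnb3 lower at 6 months.

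**Figure D2:**
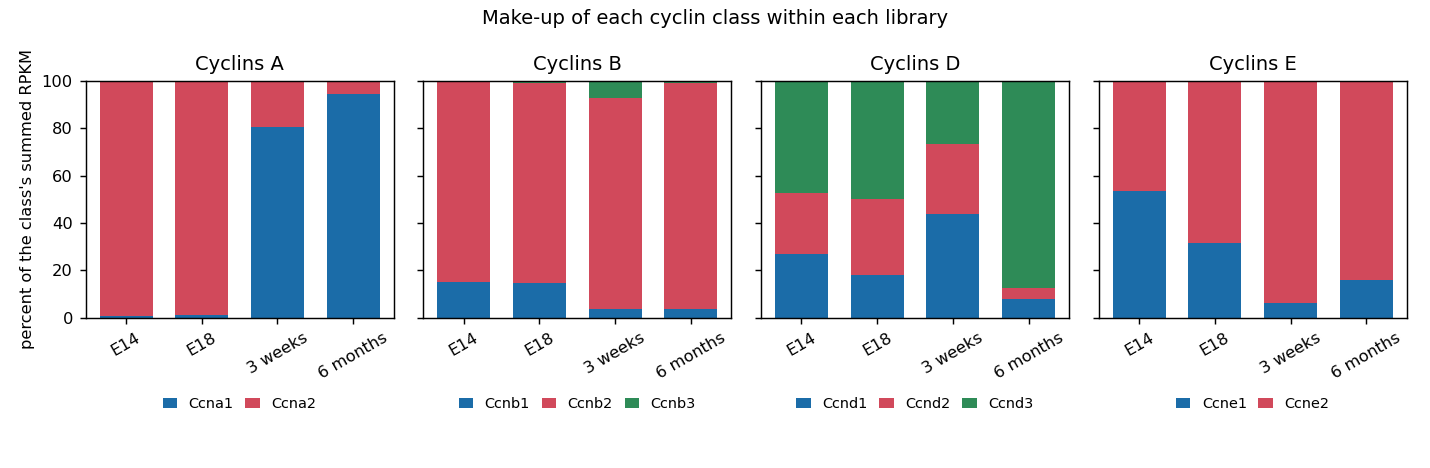
Percent of each class's summed RPKM taken by each cyclin (stacked bars from 0 to 100) within each library. Ccna1 takes 0.618% of cyclin A at E14 and 94.4% at 6 months, Ccnd3 takes 87.5% of cyclin D at 6 months, and Ccne2 takes 93.9% of cyclin E at 3 weeks.

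Ccne1 (chromosome 7, 38097984 to 38107534) had 3.71 RPKM at E14 and 1.14 at E18, but postnatally 1.06 at 3 weeks and 0.776 at 6 months. E14 was above E18 by 3.25 times (2.61 to 4.07). E18 and 3 weeks did not differ beyond counting error (ratio 1.07, interval 0.806 to 1.43), nor did 3 weeks and 6 months. Ccne2 (chromosome 4, 11191351 to 11204779) had 3.24 RPKM at E14 and 2.47 at E18, then 16.4 at 3 weeks and 4.04 at 6 months. Like Ccnb3 it was highest at 3 weeks, at 6.66 times E18 (5.89 to 7.56) and 4.07 times 6 months (3.69 to 4.50), but unlike Ccnb3 it was well covered in the fetal libraries (441 reads at E14 and 295 at E18). Ccne1 was 53.3% of cyclin E RPKM at E14 (49.9% to 56.8%), 31.6% at E18, 6.07% at 3 weeks (4.95% to 7.35%) and 16.1% at 6 months. Both E-type cyclins act with Cdk2 and both have roles in male meiosis. In these libraries Ccne2 was the main form after birth, and already at E18, with 68.4% of the class (63.3% to 73.2%).

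Among the D-type cyclins, Ccnd1 (chromosome 7, 144929931 to 144939925) had 5.19 RPKM at E14 and 3.32 at E18, followed by 1.61 at 3 weeks and 0.380 at 6 months, lower at each later stage by more than counting error. Ccnd2 (chromosome 6, 127125162 to 127152193) had 5.04, 5.90, 1.09 and 0.209 RPKM in the same order and spanned 28.2 times from its highest to its lowest level (20.99 to 38.7). Ccnd3 (chromosome 17, 47505051 to 47599691) had 9.11, 9.12, 0.980 and 4.12 RPKM. Its fetal levels did not differ beyond counting error (ratio 1.00, interval 0.9499 to 1.053), and both lay above both postnatal ones. Its 6-month level was 4.20 times that at 3 weeks (3.70 to 4.79), while Ccnd1 and Ccnd2 were 4.25 times (3.22 to 5.68) and 5.23 times (3.79 to 7.34) lower at 6 months than at 3 weeks.

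Cyclin D as a class held 19.3 RPKM at E14 and 18.3 at E18, but postnatally 3.69 at 3 weeks and 4.71 at 6 months. Ccnd3 took 47.1%, 49.7%, 26.6% and 87.5% of it, and Ccnd1 was the largest part at 3 weeks with 43.8%. These shares rest on the long Ccnd3 model. With transcript lengths Ccnd3 was 76.8%, 79.3%, 56.8% and 96.2% of the class in the order of age, and Ccnd1 was 28.4% at 3 weeks. By either length the Ccnd3 share was lowest at 3 weeks and highest at 6 months. The processed pseudogene Ccnd3-ps, which shares 17.2% of its 50-base words with Ccnd3 transcripts, had 14.5, 16.2, 0.970 and 6.28 RPKM, and reads may have been shared with it.

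Differences between adjacent stages were computed on the log2(RPKM + 1) scale, which understates the change of low genes, and a size of 1 or more, a factor of 2, was called. All 10 cyclins passed the filter of 1 RPKM in at least 1 library. From E14 to E18, 0 cyclins were higher and 1 was lower, Ccne1 (log2 difference -1.14), where 2.17% of all 42964 tested entries were higher and 1.34% lower, and 3.54% and 1.64% of protein-coding symbols. The median difference was -0.14 over the cyclins, 0.03 over all tested entries and 0.09 over protein-coding symbols.

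From E18 to 3 weeks, 4 of 10 cyclins were higher, Ccna1 (3.76), Ccne2 (2.33), Ccnb3 (1.80) and Ccnb2 (1.66), and 3 were lower, Ccnd3 (-2.35), Ccnd2 (-1.72) and Ccna2 (-1.52). Over all tested entries 32.0% were higher and 10.5% lower, and over protein-coding symbols 24.1% and 13.2%. The median was -0.14 over the cyclins, 0.46 over all tested entries and 0.23 over protein-coding symbols. Ccnd1 (-0.72), Ccnb1 (-0.22) and Ccne1 (-0.05) were not called. When libraries were scaled to equal ribosomal protein levels, 4 cyclins were higher and 1 lower, since Ccna2 (-0.35) and Ccnd2 (-0.75) were no longer called, and the difference of Ccnd1 became 0.21.

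From 3 weeks to 6 months, 1 cyclin was higher, Ccnd3 (1.37), and 2 were lower, Ccne2 (-1.79) and Ccnb3 (-1.40). The background was 9.73% higher and 14.1% lower over all tested entries and 9.52% and 7.87% over protein-coding symbols. The medians were -0.50, -0.31 and -0.22. Ccna2 (-0.94), Ccnd1 (-0.92) and Ccnd2 (-0.79) fell short of the limit with a pseudocount of 1 and were called with one of 0.1 (-1.33, -1.84 and -1.95). Ccna1 (0.58) was called higher under the median of ratios (1.23), which made the counts 2 higher and 2 lower, and the counts were 1 and 4 with an equal sum over all entries and 1 and 3 with an equal sum over protein-coding symbols.

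**Figure D3:**
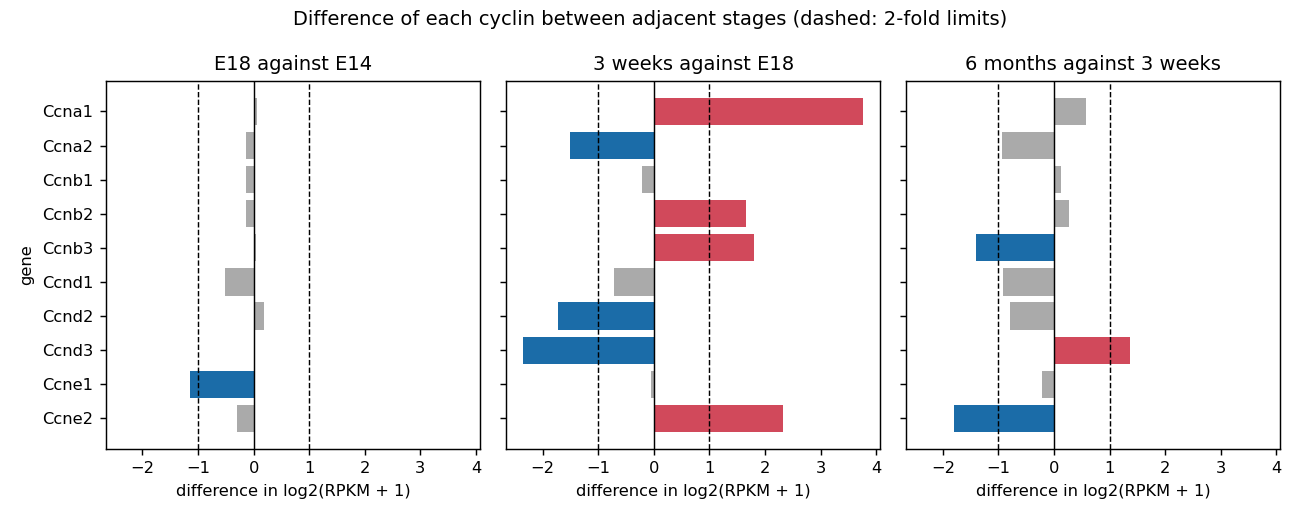
Difference in log2(RPKM + 1) of each cyclin, later minus earlier stage, in 3 panels for the adjacent comparisons; dashed lines are the 2-fold limits and coloured bars pass them. 1 bar passes a limit from E14 to E18 (Ccne1), 7 do so from E18 to 3 weeks and 3 from 3 weeks to 6 months.

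Marker genes show which cells could contribute, and in bulk tissue fewer cells of a type and less RNA per cell cannot be told apart. The 6 spermatocyte markers summed to 1.83 RPKM at E14 and 5.54 at E18, then 394 at 3 weeks and 227 at 6 months, with 0, 2, 6 and 6 of them at 1 RPKM or more. Round spermatid markers summed to 0.752, 0.930, 11.1 and 353 RPKM, with Catsper1 at 0 at E14 and Acrv1, Catsper1 and Catsper3 at 0 at E18, and elongating spermatid markers to 1.33, 1.99, 16.7 and 6154. Ccnb3 and Ccne2 were highest in the library where the spermatocyte sum was highest. The larger step of Ccna1 and Ccnb2, from E18 to 3 weeks, was also the step in which that sum went from 5.54 to 394. The higher Ccnd3 of 6 months stood beside spermatid sums and a Leydig cell sum that were highest there. Sums of Leydig cell markers and of peritubular and smooth muscle markers were, like Ccnd3, lower at 3 weeks than at E18 and 6 months. Ccnd3 itself was highest in the fetal libraries, where the spermatid sums were lowest. The part of these cells in those levels was not tested. All spermatocyte markers but Meiob are also in the list of meiotic genes described further on. Sertoli cell markers summed to 11.01, 92.0, 144 and 136 RPKM (4, 7, 7 and 6 of 8 at 1 RPKM or more, with Rhox8 at 0 at E14). Leydig cell markers summed to 8.12, 138, 65.3 and 561 RPKM. Markers of gonocytes and spermatogonia summed to 16.2, 15.5, 114 and 59.5, with Nanos2 at 0 at E14. Only 2, 4, 3 and 3 of these 8 were at 1 RPKM or more, so few genes carried the sums. Markers of peritubular and smooth muscle cells summed to 192, 752, 45.1 and 69.7 RPKM and endothelial markers to 18.003, 29.95, 3.89 and 2.34, so both were lower at 3 weeks than at E18 beside Ccna2, Ccnd2 and Ccnd3, and their part was not tested. Macrophage markers summed to 4.13 to 5.68 RPKM in all libraries.

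Markers of tissues other than testis were present in the fetal libraries. At E14 all 4 cartilage markers, all 5 skeletal muscle markers and all 4 liver markers were at 1 RPKM or more and summed to 67.6, 186 and 296 RPKM, against 0.489, 44.3 and 57.7 at E18. Red cell markers summed to 181 and 54.4 RPKM and neuronal ones to 45.7 and 7.33. The neuronal set was not particular to the fetal libraries, with 12.5 RPKM at 3 weeks and 10.3 at 6 months, both above E18. The E14 and E18 sums of these tissues moved with the higher Ccne1 and Ccnd1 of E14, and their part in that result was not tested. At E18 kidney tubule markers summed to 26.1 RPKM and bladder urothelium markers to 41.3, against 0.528 and 0.587 at 3 weeks, beside the lower Ccna2, Ccnd2 and Ccnd3 of 3 weeks, and their part was not tested. The 4 epididymis markers summed to 44.4 RPKM at 3 weeks and to 0.0322 to 0.287 in the other libraries, beside the peaks of Ccnb3 and Ccne2 at 3 weeks, and their part was not tested.

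Of the kinase partners, Cdk4, which binds D-type cyclins, had 34.6 RPKM at E14 and 30.9 at E18, followed by 7.48 at 3 weeks and 3.602 at 6 months. It was the 1 of 4 partners called, lower at 3 weeks, where 13.2% of protein-coding symbols and 10.5% of all tested entries were lower. Its order of levels was that of Ccnd1, but also of Ccna2, Ccne1 and Cdk1, and not of Ccnd2 or Ccnd3. Cdk6, the other partner of D-type cyclins, was at 2.06, 2.14, 1.32 and 0.935 RPKM. Cdk2, the partner of A- and E-type cyclins, had 5.48, 5.58, 12.04 and 6.33 RPKM, highest at 3 weeks like Ccne2, and Cdk1, the partner of B-type cyclins, had 8.88, 8.67, 6.28 and 4.38. Neither was called in any adjacent comparison. Cdk2 fell just short at 3 weeks with a log2(RPKM + 1) difference of 0.99, while its RPKM ratio to E18 was 2.16 (1.96 to 2.38).

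The inhibitors of these kinases also differed by stage. Cdkn1c (p57), a Cip/Kip inhibitor and imprinted gene, had 62.9 RPKM at E14 and 17.4 at E18, but postnatally 0.531 at 3 weeks and 1.02 at 6 months and was called lower at the first and the second step. Cdkn1b (p27) had 3.22, 4.65, 2.65 and 0.881 RPKM and Cdkn1a (p21) 3.49, 2.37, 1.13 and 1.66. Of the Ink4 inhibitors, which act on Cdk4 and Cdk6, 2 of 4 were called higher at 3 weeks. Cdkn2c (p18) had 1.36, 2.78, 15.6 and 17.9 RPKM and Cdkn2d (p19) 3.21, 3.09, 9.53 and 9.56, and these were the called ones. Cdkn2b had 0.332, 0.440, 1.61 and 1.82 RPKM and Cdkn2a 0.0439, 0.548, 1.16 and 0.477. At E18 1 of 7 inhibitors was lower, where 1.64% of protein-coding symbols were. At 3 weeks 2 of 7 were higher and 1 lower. That is near the 24.1% and 13.2% of protein-coding symbols and the 32.0% and 10.5% of all tested entries. The list median at that step was 0.48, against 0.23 over protein-coding symbols and 0.46 over all tested entries. From 3 weeks to 6 months 0 were called.

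**Figure D4:**
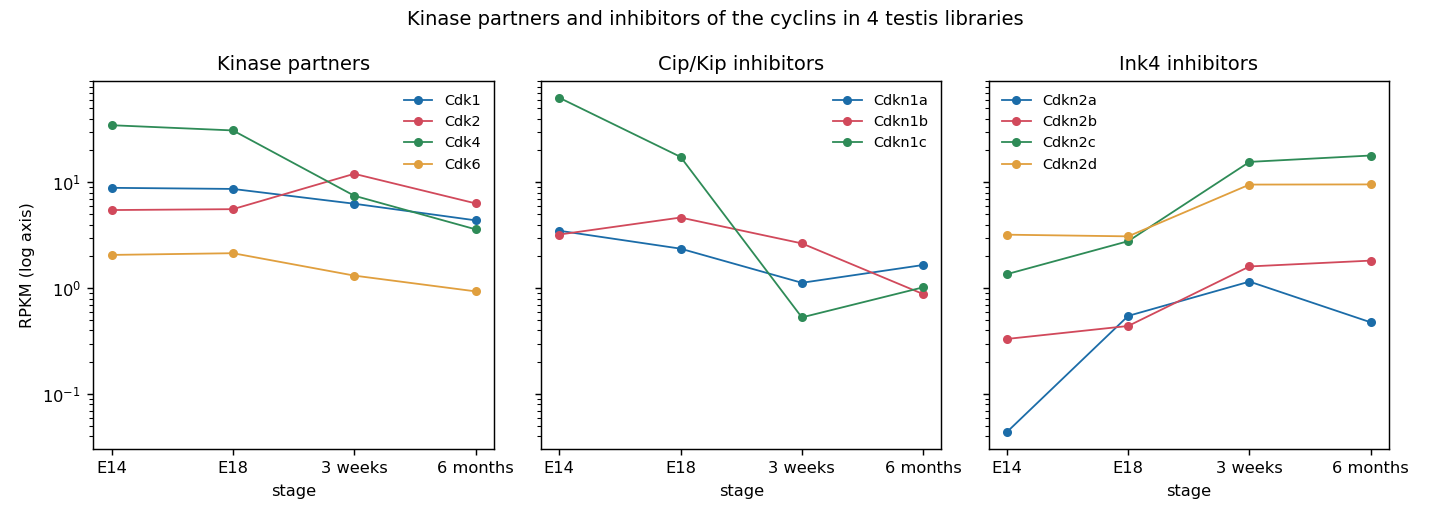
RPKM (log axis) of the kinase partners, the Cip/Kip inhibitors and the Ink4 inhibitors at the 4 stages, 1 library a stage. Cdk4 goes from 34.6 at E14 to 3.602 at 6 months and Cdkn1c from 62.9 to 1.02, while Cdkn2c goes from 1.36 to 17.9.

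Of 9 tested activation genes, 1 was higher at 3 weeks, Cks2, a small kinase subunit needed for meiosis (3.40 and 16.3 RPKM). Its paralog Cks1b was the 1 lower (9.29 and 3.22), and both were lower at 6 months (6.12 and 1.02). Over protein-coding symbols 24.1% were higher and 13.2% lower at 3 weeks, and 7.87% lower at 6 months. Of 22 genes of cyclin destruction, 6 were higher and 1 lower at 3 weeks, where 24.1% of protein-coding symbols and 32.0% of all tested entries were higher, so the count is near the background. The median of that list was 0.13, against 0.23 over protein-coding symbols and 0.46 over all tested entries. The higher ones were led by Fbxo43 (Emi2), an inhibitor of the anaphase-promoting complex (0.0145 RPKM at E18 and 4.85 at 3 weeks, a ratio of 335 with an interval of 92.3 to 2769), and Ube2s, an E2 enzyme of that complex (22.3 and 91.7), while its other E2 enzyme Ube2c was lower (5.01 and 1.78). Skp2, of the SCF ubiquitin ligase, was higher at 6 months (0.794 and 7.25 RPKM). So was Fzr1 (Cdh1), an activator of the anaphase-promoting complex (4.52 and 10.0). That count, 2 of 22, is near the 9.52% of protein-coding symbols higher in that step.

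In the retinoblastoma and E2F list, 1 of 16 tested genes was lower at E18, E2f2 (3.01 and 0.760 RPKM), in the same step as Ccne1. Over protein-coding symbols 1.64% were lower in that step. At 3 weeks 4 were higher and 0 lower, again near the 24.1% of protein-coding symbols higher in that step. They were led by Mybl1 (A-MYB), a regulator of meiotic genes (1.25 and 16.5 RPKM). Next was Lin52, of the complex that binds cell cycle promoters (1.10 and 4.89). The list median was 0.32, against 0.23 over protein-coding symbols and 0.46 over all tested entries. From 3 weeks to 6 months Rbl2 was higher (1.31 and 3.78 RPKM) and Mybl1 (16.5 and 5.19) and Tfdp1 (8.99 and 3.93) were lower. Over protein-coding symbols 9.52% were higher and 7.87% lower in that step.

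Of the proliferation genes, 5 of 20 were higher and 2 lower at 3 weeks, near the 24.1% and 13.2% of protein-coding symbols. The higher ones were led by the mitotic kinases Aurka (3.75 and 24.1 RPKM) and Bub1 (3.06 and 16.2), and the lower ones were the replication genes Mcm2 (13.8 and 4.83) and Tk1 (2.38 and 0.572). At 6 months 0 were higher and 5 lower, where 9.52% and 7.87% of protein-coding symbols were, led by the division marker Mki67 (4.28 and 0.785) and the spindle motor Kif11 (6.60 and 2.45), and the list medians were 0.14 and -0.79 for these steps. Of 18 genes of meiotic entry and prophase, 3 were higher at E18, led by Dazl (0.0995 and 3.53 RPKM) and Sycp3 (0.651 and 2.50). At 3 weeks 16 were higher and 0 lower, led by Syce1 (0.979 and 128 RPKM) and Hspa2 (1.66 and 168). At 6 months 1 was higher and 10 lower. Over protein-coding symbols 3.54% were higher at E18, 24.1% higher at 3 weeks, and 9.52% higher and 7.87% lower at 6 months. The last step held Rec8 (1.94 and 7.03 RPKM) as the higher gene, and Sycp2 (65.9 and 10.7) and Hormad1 (30.3 and 7.04) led the lower ones, a direction shared with Ccnb3 and not with Ccna1. The list medians were 0.26, 3.39 and -1.34 over the 3 steps.

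Of the cyclins outside these 4 classes, 15 of 17 were tested. At 3 weeks 3 were higher and 0 lower. Over protein-coding symbols 24.1% were higher and 13.2% lower in that step, so the higher count is near the background. The higher ones were led by Cntd1, a crossover factor of meiosis (1.37 and 27.9 RPKM), and Ccnk, a partner of transcriptional kinases (2.08 and 26.4). At 6 months 1 was lower, Ccnh, the partner of Cdk7 (6.52 and 2.08 RPKM), near the 7.87% of protein-coding symbols lower in that step.

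The genes with the most similar profile to each cyclin were found by Euclidean distance of log2(RPKM + 1) over the 4 stages among 10404 protein-coding symbols. Nearest to Ccna1 were Cct6b (distance 0.11) and Gm4871 (0.17), with Cct6b at 0.0823, 0.0936, 14.5 and 20.4 RPKM. Ccnb3 had Hsbp1l1 (0.39) and Zfp951 (0.52) as nearest, and Ccne2 had Mum1l1 (0.37) and Thoc1 (0.51). For Ccnb2 they were Larp1 and Timm8b (both 0.32), and for Ccnb1 Nol6 (0.15) and Mrps26 (0.16). Ccna2 was nearest to Sulf2 (0.36) and Gm26602 (0.37), Ccnd1 to Chsy1 (0.29) and Clcn5 (0.30), Ccnd2 to Pdlim7 (0.22) and Praf2 (0.27), Ccnd3 to Jund and Snn (both 0.34), and Ccne1 to Dact1 (0.43) and Abcb10 (0.48). The distances say only that levels were alike in these 4 libraries.

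Several cyclins overlap another gene on the opposite strand, and the treatment of strand in counting is not given in the sources used here. The shares below are of the exons annotated in GENCODE vM21. For Ccna1, Ccna2 and Ccnd2 these span 1835, 4083 and 9409 bases, against 1585, 3511 and 6135 in the models found from the deposited values. The overlap with those models is thus not known. The antisense gene 4931419H13Rik, which covers 10.1% of the exonic bases of Ccna1, had 0, 0.0300, 1.33 and 2.12 RPKM. Exosc9 covers 12.5% of those of Ccna2 and had 1.85, 1.77, 2.61 and 1.07 RPKM, with 418 reads beside 410 of Ccna2 at 3 weeks. Ints8 covers 17.4% of those of Ccne2 and was also highest at 3 weeks (1.67, 1.47, 5.12 and 1.59 RPKM, with 1505 reads beside 1950 at 3 weeks). Oraov1, whose current name is Lto1, covers 23.4% of those of Ccnd1 and had 1.63, 1.23, 1.02 and 0.634 RPKM, with 100 reads beside 64 of Ccnd1 at 6 months. The gene 9330179D12Rik covers 3.91% of those of Ccnd2 and had 0.0374 to 0.235 RPKM. Bysl covers 4.11% of those of Ccnd3 and had 6.24, 5.83, 2.20 and 3.57 RPKM, also lowest at 3 weeks. How many reads were shared between such pairs was not tested.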

How the data were processed

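RNA of 4 testis libraries was measured by directional sequencing. Per the labels, ribosomal RNA was depleted, and the molecule field and protocol also name poly(A) selection. The RPKM values are those the authors deposited. Per the submitters' processing notes, reads were handled with TopHat2 on mm10. The sources used here do not give the counter, the annotation or the treatment of strand and of multiply mapped reads.

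From these files the total of reads of each library was read from the steps of RPKM times length over single-exon genes (GENCODE vM21). Whole reads and a model length, up to 200000 bases at a relative tolerance of 1e-09, were then found for all 10 cyclins, and the annotated length was taken where it was a whole multiple. A common factor may be lost, which only widens an interval. Intervals are exact Poisson (levels) or Clopper-Pearson (ratios, shares) at 95%. For a class of 3, the share's interval takes the mix of the other 2 as observed. 3 reads correspond to 0.0487 RPKM for Ccna1 and 0.0169 for Ccnb3 at E14. Entries of at least 1 RPKM in a library were compared with a pseudocount of 1.

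The genes named were all cyclins, the partners and inhibitors, up to 2 per direction of each list and step, and the 2 nearest profiles of each cyclin. The members and lists were chosen with earlier results of these data known. Meioc was matched through its older name Gm1564. Calls and read recovery were tested on simulated data that held counting error only. The changes put in there were large and in well expressed genes. Finding changes in low genes or near the limit of a call was thus not tested. Python 3.11.15, pandas 2.3.3 and scipy 1.17.1 were used.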

Additional observations from a re-analysis of the deposited data

How the results depend on the processing

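No paired analysis was possible because each stage has 1 library, and for the same reason no replicate could be left out. Of the 74 values of called cyclin differences under the 7 settings other than the 4-fold limit, 2 lost the call, both under ribosomal protein scaling, and 0 calls changed direction in any of the 8. Counts that moved by more than 1.5 times were these. At 4-fold, 0 cyclins were lower at E18, 2 higher and 1 lower at 3 weeks, and 0 higher and 0 lower at 6 months. A minimum of 5 RPKM, which leaves out Ccnb1, Ccnb3 and Ccne1, gave 0 lower at E18 and 1 lower at 6 months. Ribosomal protein scaling gave 1 lower at 3 weeks, the median of ratios 2 higher at 6 months, a pseudocount of 0.1 gave 5 lower and an equal sum 4 lower at 6 months. Smaller moves were 3 higher at 3 weeks at the 5 RPKM minimum, without Ccnb3, and, with the protein-coding sum, 4 lower at 3 weeks, with Ccnd1 added, and 3 lower at 6 months. The median of all tested entries shifted by 0.17 (equal sum), -0.23 (median of ratios), 0.71 (ribosomal protein) and -0.22 (protein-coding sum) from E18 to 3 weeks, and by 0.45, 0.23 and -0.14 under the last 3 from 3 weeks to 6 months. Under ribosomal protein scaling the uncalled differences of Ccnb1, Ccnd1 and Ccne1 from E18 to 3 weeks were positive (0.59, 0.21 and 0.63). Counted as reads and not per length, Ccna1 was 65.3% of cyclin A at 3 weeks and 88.3% at 6 months, Ccnb3 was 1.06%, 1.83%, 17.8% and 2.76% of cyclin B in order of age, and Ccne1 was 46.5%, 26.1%, 4.69% and 12.8% of cyclin E. With the longest coding transcript as length, chosen after seeing the data, Ccna1 was 76.5% and 92.9% at the postnatal stages. Adding 0.1 RPKM gave a Ccnb3 share of 1.16% at E14 and 1.56% at E18. Few reads limit the fetal values of Ccna1 and Ccnb3.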
